A study of Mus musculus with 12 samples.

Results

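The 10 genes described here encode chaperones and stress-response proteins of the endoplasmic reticulum (ER). They were followed in mouse embryonic fibroblasts labelled as wild type or as knock-out of the calcium channel gene Itpr2. They are Hspa5, Hsp90b1, Calr, Canx, Pdia4, Pdia6, Dnajb9, Xbp1, Herpud1 and Sdf2l1. They were chosen by name from knowledge of the pathway, with earlier results of these data known. Their probes were found by matching the array's transcript identifiers to RefSeq symbols. All 10 were among the 19507 genes tested, and they were read by 12 of the 39429 probes. Dnajb9 and Pdia6 had 2 probes each, and for these the brighter probe stands for the gene. The groups were KO fibroblasts after 5 passages (KO late), WT fibroblasts after 5 passages (WT late), KO fibroblasts after 3 passages (KO early) and WT fibroblasts after 3 passages (WT early). KO stands for Itpr2 knock-out and WT for wild type. All were primary cultures from E12.5 embryos, grown in the same medium with fetal serum, and each group had 3 replicates. The series design mentions 3 independent animals for each genotype, but the labels do not say which culture came from which animal. The labels give neither the mouse strain nor the allele's construction, and no group was treated with an agent that disturbs protein folding.

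The ER lumen is where secreted and membrane proteins, among them the collagens that fibroblasts make in bulk, are folded, glycosylated and given their disulfide bonds. Hspa5 (BiP) and Hsp90b1 are its heat shock chaperones, Calr and Canx are lectins that hold newly made glycoproteins, and Pdia4 and Pdia6 form and rearrange disulfide bonds. When unfolded protein accumulates, the sensors Ern1 (IRE1), Eif2ak3 (PERK) and Atf6 switch on the unfolded protein response, which raises transcription of most of these genes. ITPR2, the type 2 inositol trisphosphate receptor, releases calcium from the same compartment, and several of the chaperones bind calcium.

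Each of the 12 arrays was hybridised with 100 ng of RNA labelled with a single dye. The level of a gene is given as the log2 of its spot signal minus the log2 of the 75th percentile of its array. A level of 1 is therefore 2 times the 75th percentile, and levels of different genes are not compared because each probe has its own brightness. Between 59.1% and 67.5% of the probes of an array were well above background, all 12 probes of the 10 genes were above it on all 12 arrays, and 0 probes were saturated. Replicates of a group correlated at 0.985 to 0.997 across probes. The Itpr2 probe that passed the background filter read 1.75, 1.83 and 1.72 in KO late, 1.53, 1.74 and 1.56 in WT late, 1.12, 1.36 and 1.58 in KO early, and 1.23, 0.96 and 0.66 in WT early. It was thus not lower in KO arrays. Where it lies relative to the deletion was not given in the sources used, so it does not check the genotype labels. Xist, which female cells express, was above background on KO late replicates 1 and 2, on WT late replicate 1 and on WT early replicate 1, and on 0 of the 3 KO early arrays. The Y-chromosome gene Ddx3y was also above background on KO late replicate 1 (-0.14), but not on KO late replicate 2, WT late replicate 1 or WT early replicate 1. It read 0.76, 0.76 and 0.82 in KO early. Results on the 10 genes and the pathway lists that rest on KO late are therefore also given without KO late replicates 1 and 2. This leaves a single KO late array, whose spread is taken from the other groups. All 10 fibroblast markers examined were above background on every array.

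The promoters are shown first because several of them carry the element through which the unfolded protein response is known to act on this family. The ER stress element (ERSE) is a CCAAT box followed after 9 bases by CCACG, searched as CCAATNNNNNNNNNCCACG on both strands of the RefSeq GRCm38.p6 windows that run from 250 bases before to 50 bases after each start. It was found in 5 of the 10 genes (Hspa5, Hsp90b1, Calr, Canx and Pdia6), against 0.119% of all 32851 promoters. With any last base, a looser form that was not planned, it was found in 7 of 10, adding Pdia4 and Herpud1, against 0.365% of all promoters. The second form, ERSE-II, searched as ATTGGNCCACG, was found in Herpud1 only, against 0.0365% of all promoters. The unfolded protein response element, searched as TGACGTGG, was found in 0 of 10, against 0.676% of all promoters. CCAAT itself, also not planned and contained in both forms of the ERSE, was found in 9 of 10 (all but Xbp1), against 37.4% of all promoters. The 10 genes were chosen from knowledge of the pathway that this element serves, so these shares are no test of the set. The 3 genes below that passed a test, and Hspa5 as the best known carrier of the element, are printed with the 250 bases before the start, 5′ to 3′ on the gene's own strand. Capitals mark the ERSE or ERSE-II matches. Herpud1 lies at chr8:94386429-94395371, Sdf2l1 at chr16:17130138-17132383, Canx at chr11:50293957-50325673 and Hspa5 at chr2:34772090-34776529, and all are protein-coding genes. The windows before them are chr8:94386179-94386428 on the plus strand for Herpud1, chr16:17132384-17132633 on the minus strand for Sdf2l1, chr11:50325674-50325923 on the minus strand for Canx and chr2:34771840-34772089 on the plus strand for Hspa5.
Herpud1: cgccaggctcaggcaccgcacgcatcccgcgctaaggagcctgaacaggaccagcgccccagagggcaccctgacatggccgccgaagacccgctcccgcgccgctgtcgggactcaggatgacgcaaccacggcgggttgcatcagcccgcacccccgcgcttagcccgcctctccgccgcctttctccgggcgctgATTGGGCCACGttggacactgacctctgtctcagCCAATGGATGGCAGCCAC
Sdf2l1: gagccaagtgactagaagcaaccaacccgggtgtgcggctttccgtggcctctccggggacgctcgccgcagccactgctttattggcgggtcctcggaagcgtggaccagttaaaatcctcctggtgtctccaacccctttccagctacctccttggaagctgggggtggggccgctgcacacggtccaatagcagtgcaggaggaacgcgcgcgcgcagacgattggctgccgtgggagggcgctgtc
Canx: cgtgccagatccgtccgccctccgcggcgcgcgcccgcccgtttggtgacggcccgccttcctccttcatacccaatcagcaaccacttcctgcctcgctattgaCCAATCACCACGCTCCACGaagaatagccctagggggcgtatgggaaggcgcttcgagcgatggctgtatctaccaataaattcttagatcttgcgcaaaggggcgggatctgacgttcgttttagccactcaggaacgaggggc
Hspa5: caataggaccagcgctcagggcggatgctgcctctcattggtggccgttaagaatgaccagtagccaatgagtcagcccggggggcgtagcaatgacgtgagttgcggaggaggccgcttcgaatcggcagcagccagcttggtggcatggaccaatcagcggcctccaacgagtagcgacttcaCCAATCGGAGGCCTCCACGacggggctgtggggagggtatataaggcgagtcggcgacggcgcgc
The exact ERSE match of Hspa5 lay at bases -65 to -47 and that of Canx at -145 to -127. In Herpud1 the ERSE-II match lay at -52 to -42, and the capitals at the end of its window open a match with another last base that runs 1 base past the start. Sdf2l1 had CCAAT boxes but no match to either form of the ERSE in this window, which says only that these letters are not there.

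**Figure D1:**
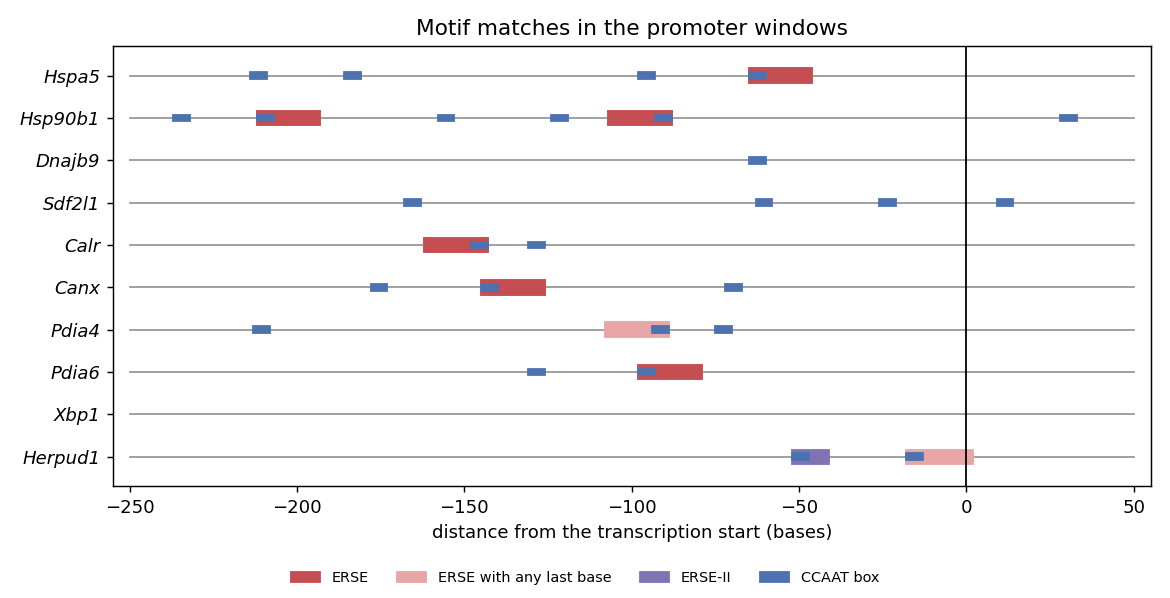
Positions of motif matches (coloured boxes) along the promoter window of each of the 10 genes, in bases from the annotated transcription start (vertical line). An ERSE with the exact last base appears in 5 genes, Hsp90b1 has 2 of them, the ERSE-II box appears in Herpud1 only, and Xbp1 has no box.

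The comparison of KO with WT fibroblasts at late passage sets cells with and without the channel gene side by side after the longer culture. Of the 10 genes, 1 was higher (Herpud1) and 1 was lower (Sdf2l1) in KO late at an adjusted p under 0.05 (limma, Benjamini-Hochberg over all genes tested). Over all genes, 3.46% were called higher and 4.37% lower, so 1 call in each direction among 10 genes is no result about the set as a whole. The median difference of the 10 genes was 0.0027 on the log2 scale, and that of all genes was -0.0081. Herpud1 encodes a stress-induced ER membrane protein of the machinery that sends misfolded proteins to the proteasome. Sdf2l1 encodes a soluble ER protein that works with Hspa5 and its co-chaperones.

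Herpud1 stood at 2.81, 2.89 and 2.73 in KO late, against 2.57, 2.27 and 2.31 in WT late. All 3 KO late arrays were above all 3 WT late arrays, with WT late replicate 1 the nearest. The fitted difference was 0.43 ± 0.11 (SE, 95% interval 0.19 to 0.67), or 1.35-fold higher in KO late (adjusted p = 0.0409). Within slides 1, 2 and 3, each of which carried 1 array of every group, the difference was 0.24, 0.62 and 0.42. With the slide, which is also the replicate number, as a block the adjusted p was 0.0673. Over all alternatives tried the adjusted p lay between 0.0180 and 0.529. Leaving out WT late replicate 2 or 3, or KO late replicate 1, 2 or 3, gave differences of 0.37, 0.39, 0.43, 0.39 and 0.47, none of them past the threshold. Without both KO late arrays that carried Xist the difference was 0.35, also not past it (adjusted p = 0.529).

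Sdf2l1 stood at -0.22, -0.29 and -0.08 in KO late, against 0.17, 0.33 and 0.31 in WT late. The groups did not overlap, and KO late held the 3 lowest values of the 12 arrays. The fitted difference was -0.46 ± 0.12 (SE, 95% interval -0.73 to -0.20), or 1.38-fold lower in KO late (adjusted p = 0.0406). Within slides 1, 2 and 3 it was -0.39, -0.62 and -0.38. Leaving out any of the 6 arrays compared kept the difference between -0.52 and -0.42 but moved the adjusted p to between 0.0569 and 0.139. Without both KO late arrays that carried Xist it was -0.35 (adjusted p = 0.561), and over all alternatives the adjusted p lay between 0.0133 and 0.561.

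Markers of other cells moved with the late passage comparison in which Herpud1 and Sdf2l1 were called. All 12 macrophage markers were above background on every array, and the sum of their signals, in multiples of the 75th percentile, ranged from 30.3 to 67.4 in KO late, 75.7 to 129 in WT late, 49.3 to 64.5 in KO early and 40.3 to 106 in WT early. All 12 had a lower mean in KO late than in WT late, and 2 of them passed the test. Of the cartilage markers, 9 of 10 were above background on all KO late arrays and 7 of 10 on all WT late arrays, with Matn1 above it on no KO late array and Epyc on no WT late array. Their sum ranged from 37.4 to 50.7 in KO late, 30.0 to 35.4 in WT late, 33.9 to 48.2 in KO early and 27.2 to 86.4 in WT early, and 6 of the 9 tested were higher in KO late. The sum of 6 epithelial markers was 0.37 to 0.43 in KO late and 1.40 to 1.77 in WT late, with Cdh1 and Krt8 not above background on any array of either group, and Krt19 was called lower in KO late (-2.06 ± 0.39, adjusted p = 0.0157). The sum of 8 skeletal muscle markers was 0.33 to 0.38 in KO late and 0.28 to 0.35 in WT late. Of the 3 tested, Tnnt1 had a higher mean in KO late (0.53 ± 0.19, adjusted p = 0.110) and Actc1 a lower one (-1.43 ± 0.49, adjusted p = 0.102), neither past the threshold. Only Des was called, as lower in KO late. It was not well above background on any KO late array and above it on all 3 WT late arrays, so it was at least 3.67-fold lower in KO late, taking the lowest signal well above background as the level of an array below it (adjusted p = 0.00211). Of the 10 fibroblast markers, Col3a1 was higher (0.96 ± 0.17), and Thy1 (-1.18 ± 0.31) and S100a4 (-1.35 ± 0.29) were lower in KO late, while their sum was 673 to 747 in KO late and 629 to 709 in WT late. The part of these cells in the levels of the 10 genes was not tested, and in a bulk extract fewer cells of a type and less RNA per cell cannot be told apart.

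The 2 lectins of the glycoprotein cycle had lower means in KO late, without passing the test. Canx, which is anchored in the membrane, stood at 4.32, 4.30 and 4.34 in KO late and at 4.56, 4.46 and 4.55 in WT late. Its groups did not overlap, and the difference was -0.21 ± 0.08 (SE, 95% interval -0.38 to -0.04, adjusted p = 0.118). The lowest adjusted p of Canx over the alternatives was 0.0483. Calr, the soluble lectin that also stores calcium in the lumen, stood at 4.42, 4.32 and 4.59 in KO late and at 4.61, 4.52 and 4.67 in WT late. Its groups overlapped, and the difference was -0.16 ± 0.13 (adjusted p = 0.498).

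The heat shock chaperones of the lumen were close in the 2 genotypes at late passage. Hspa5 read 5.84, 5.73 and 6.001 in KO late, against 5.96, 5.84 and 5.69 in WT late. The ranges overlapped almost entirely, and the 95% interval of the difference ran from -0.21 to 0.25 (difference 0.02, adjusted p = 0.927). Hsp90b1, the Hsp90 of the lumen, read 5.62, 5.58 and 5.78 in KO late, against 5.87, 5.67 and 5.60 in WT late, with an interval of -0.29 to 0.20. Dnajb9, a co-chaperone that stimulates the ATPase of Hspa5, averaged 0.83 ± 0.08 in KO late and 0.69 ± 0.13 in WT late (SD, n = 3 each), an interval of -0.08 to 0.37. For none of the 3 did the difference pass the test.

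Of the disulfide isomerases, Pdia4 averaged 1.69 ± 0.26 in KO late and 1.502 ± 0.24 in WT late (SD, n = 3 each). Its interval, -0.21 to 0.58, was the widest of the 10 genes. Pdia6 averaged 6.005 ± 0.06 in KO late and 6.002 ± 0.20 in WT late (SD, n = 3 each), with an interval of -0.27 to 0.27. Its second probe gave a difference of -0.19 ± 0.10 where the brighter probe gave 0.00 ± 0.12, and neither passed the test. Xbp1, whose mRNA is cut by Ern1 to make the active transcription factor, averaged 4.25 ± 0.05 in KO late and 4.25 ± 0.20 in WT late (SD, n = 3 each), with an interval of -0.25 to 0.26. The probe reads Xbp1 mRNA, and which of its spliced forms it binds was not given in the sources used.

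**Figure D2:**
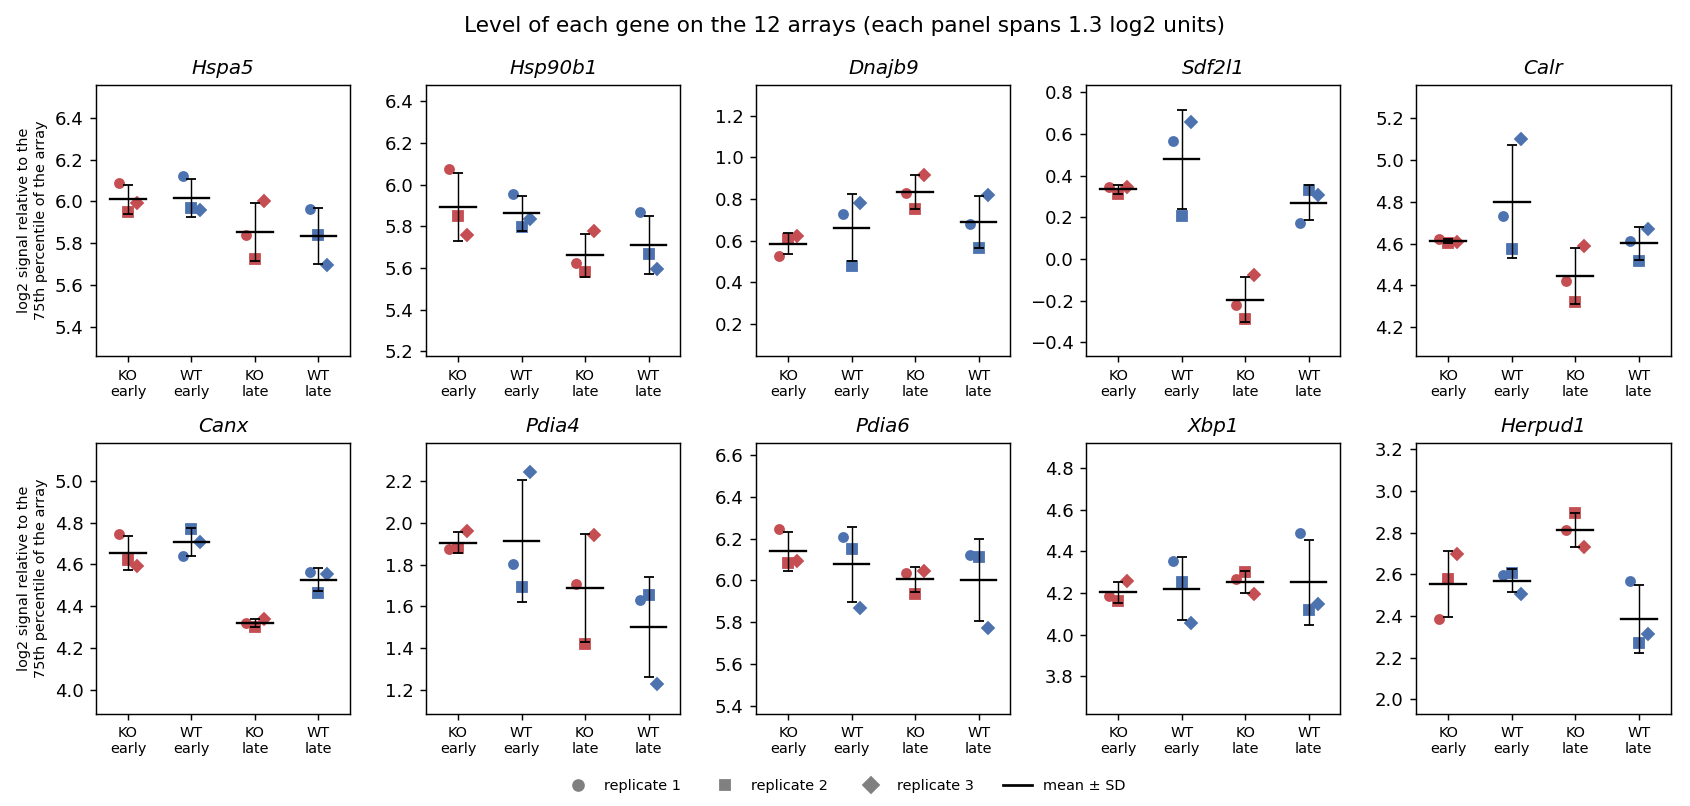
Level of each of the 10 genes on each array (log2 signal relative to the 75th percentile of the array) for KO early, WT early, KO late and WT late. Points are arrays, shapes are replicate numbers, and bars are the mean ± SD of 3 arrays. KO late Sdf2l1 lies below all 9 other arrays and KO late Herpud1 lies above them, while Hspa5 and Xbp1 overlap in all groups.

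At early passage no gene of the set was called between KO and WT. An unadjusted p under 0.05 was found for 0 of 10, and for 1168 of all 19507 genes tested. The background of calls was itself small, 0.0256% of all genes higher and 0.0103% lower. Herpud1 read 2.38, 2.58 and 2.70 in KO early, against 2.60, 2.61 and 2.504 in WT early. The WT early values lay inside the range of KO early, and the difference was -0.02 ± 0.11 (SE, 95% interval -0.26 to 0.23). Sdf2l1 read 0.34, 0.31 and 0.35 in KO early, against 0.57, 0.21 and 0.66 in WT early. The KO early arrays lay close together while the WT early arrays spread widely on both sides, and the difference was -0.14 ± 0.12. Calr had the difference farthest from 0 of the 10 genes, -0.19 ± 0.13 (95% interval -0.48 to 0.10), with 4.62, 4.602 and 4.61 in KO early and 4.73, 4.57 and 5.10 in WT early. Hspa5 differed by -0.01, with an interval of -0.23 to 0.22. For the other 6 genes the differences ran between -0.08 and 0.06. The second, dimmer probe of Dnajb9 gave 0.17 ± 0.19 where the brighter probe gave -0.08 ± 0.10, and neither passed the test.

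Between passages, the KO fibroblasts are compared after 5 and after 3 passages. Of the 10 genes, 0 were higher and 2 were lower (Sdf2l1 and Canx) in KO late than in KO early, where 9.95% of all genes were called higher and 9% lower. The median difference of the 10 genes was -0.16, with 7 of 10 below 0, and that of all genes was -0.047. Under quantile normalization the median of the 10 genes was -0.0048, and Hspa5 and Pdia6 turned from -0.16 and -0.14 to 0.02 and 0.03, so the direction of those 2 genes depends on the scale.

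Sdf2l1 read -0.22, -0.29 and -0.08 in KO late and 0.34, 0.31 and 0.35 in KO early, with no overlap. Its difference was -0.53 ± 0.12 (SE, 95% interval -0.79 to -0.27, 1.44-fold lower, adjusted p = 0.0128). Within slides 1, 2 and 3 the difference was -0.56, -0.60 and -0.42. Leaving out KO late replicate 1 or 2 took the call away, with differences of -0.52 and -0.48 and adjusted p-values up to 0.0543. Without both it was -0.41 (adjusted p = 0.323), in a range of adjusted p from 0.00187 to 0.323 over all alternatives.

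Canx read 4.32, 4.30 and 4.34 in KO late and 4.75, 4.62 and 4.59 in KO early, again with no overlap. Its difference was -0.34 ± 0.08 (SE, 95% interval -0.50 to -0.17, 1.26-fold lower, adjusted p = 0.0135). Within slides 1, 2 and 3 the difference was -0.43, -0.33 and -0.25. The call was lost under quantile normalization (-0.21, adjusted p = 0.0542) and without KO late replicate 1 or 2 (-0.34 and -0.33). Without both it was -0.31 (adjusted p = 0.284), in a range of adjusted p from 0.00191 to 0.284 over all alternatives.

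Markers of other cells also moved between the KO passages in which Sdf2l1 and Canx were lower. Des and Actc1 of the muscle list were not well above background on any KO late array and above it on all 3 KO early arrays, so they were at least 11.1-fold and 5.46-fold lower in KO late (adjusted p = 0.000109 and 0.00117). Of the epithelial markers, Krt18 (-2.67 ± 0.59) and Krt19 (-1.75 ± 0.39) were lower, and their list summed to 0.37 to 0.43 in KO late and 0.95 to 2.36 in KO early. Of the cartilage markers 3 of 9 tested were higher in KO late, namely Sox9 (0.79 ± 0.15), Hapln1 (1.55 ± 0.40) and Cnmd (6.35 ± 1.19, above background on 2 of the 3 KO early arrays). Comp (-0.996 ± 0.41, adjusted p = 0.115) and Col2a1 (-0.18 ± 0.39, adjusted p = 0.783) lay the other way without passing the test. The cartilage list summed to 37.4 to 50.7 in KO late and 33.9 to 48.2 in KO early, which overlap. Of the fibroblast markers Thy1 (-1.75 ± 0.31) and S100a4 (-1.27 ± 0.29) were lower, and the list summed to 673 to 747 in KO late and 812 to 870 in KO early. Of its 10 genes, 7 had lower and 3 had higher means in KO late. The 3 were Col3a1 (0.33 ± 0.17), Pdgfra (0.27 ± 0.46) and Pdgfrb (0.15 ± 0.19), none past the threshold. The macrophage list had 0 of 12 markers called between the KO passages, with 9 lower and 3 higher means in KO late. It summed to 30.3 to 67.4 in KO late and 49.3 to 64.5 in KO early, which overlap. Of 5 endothelial markers 2 were tested, and 0 were called here or between genotypes at late passage. The part of all these cells in the lower levels of Sdf2l1 and Canx was not tested.

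Herpud1 and Dnajb9 had higher means in KO late than in KO early, and neither passed the test. Herpud1 differed by 0.26 ± 0.11 (adjusted p = 0.123) and Dnajb9 by 0.25 ± 0.10 (adjusted p = 0.119). Dnajb9 read 0.83, 0.75 and 0.91 in KO late and 0.53, 0.61 and 0.62 in KO early, with no overlap. Hsp90b1 read 5.62, 5.58 and 5.78 in KO late and 6.07, 5.85 and 5.76 in KO early, a difference of -0.23 ± 0.11 (adjusted p = 0.168). The remaining 5 genes had differences between -0.22 and 0.05.

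In WT fibroblasts 0 of the 10 genes were called higher and 0 lower between passages, against 6.22% and 4.37% of all genes. An unadjusted p under 0.05 was found for 2 of 10 (Pdia4 and Canx), and for 5544 of all 19507 genes tested. The median difference of the 10 genes was -0.18 with 8 of 10 below 0, and that of all genes was -0.0043. Quantile normalization brought the median of the 10 genes to -0.072. Pdia4 read 1.63, 1.65 and 1.23 in WT late and 1.80, 1.69 and 2.25 in WT early. Replicate 3 was the lowest in WT late and the highest in WT early, and the difference was -0.41 ± 0.18 (SE, 95% interval -0.81 to -0.02, adjusted p = 0.161). Canx differed by -0.18 ± 0.08 (adjusted p = 0.153), Hspa5 by -0.18 ± 0.10 (adjusted p = 0.265) and Sdf2l1 by -0.21 ± 0.12 (adjusted p = 0.273). Dnajb9 and Xbp1 differed by 0.03 each. The second, dimmer probe of Dnajb9 gave 0.28 ± 0.19, and neither of its probes passed the test. The labels do not pair the WT arrays, but arrays of the same number deviated together and are set side by side here as pairs. In all 3 pairs 7 of the 10 genes were lower in WT late. The share of all genes lower in all 3 pairs was not counted, so this is no result about the set. Hspa5 differed by -0.16, -0.13 and -0.26 within pairs 1, 2 and 3, Canx by -0.07, -0.31 and -0.16, and Pdia4 by -0.18, -0.04 and -1.02. With the replicate number (slide) as a block in the fit of all groups, 0 of the 10 genes passed the test between WT passages. Their adjusted p-values ran from 0.178 to 0.874. That fit also holds the KO arrays, and a block of the WT pairs alone was not fitted.

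**Figure D3:**
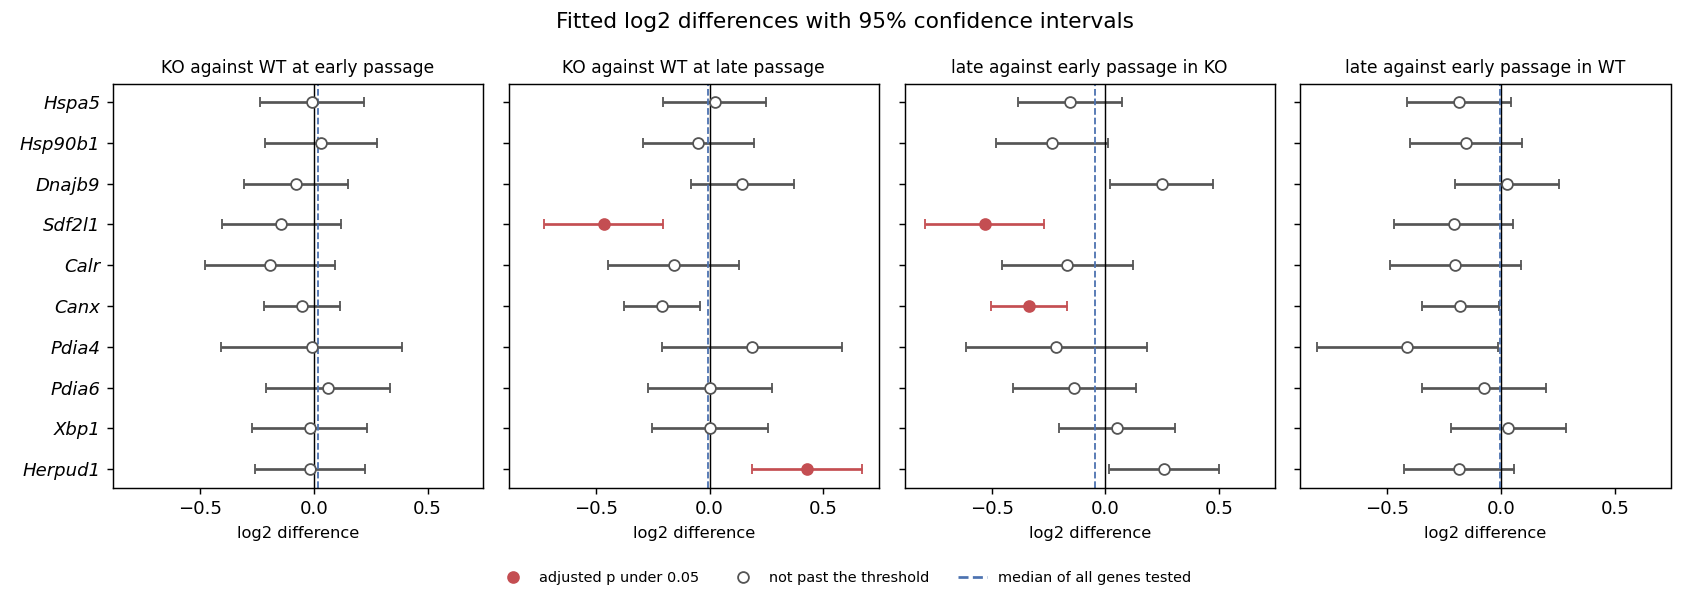
Fitted log2 differences (points) with 95% confidence intervals (bars) for the 10 genes in KO against WT at early and late passage and in late against early passage of KO and of WT. Filled points have an adjusted p under 0.05: Sdf2l1 and Herpud1 between genotypes at late passage, and Sdf2l1 and Canx between passages in KO. The dashed line is the median of all genes tested.

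The difference between the passage changes of the 2 genotypes was tested directly. Of the 10 genes, 0 were called in either direction, against 0.0205% of all genes higher and 0.0666% lower. An unadjusted p under 0.05 was found for 1 of 10 (Herpud1), and for 2713 of all 19507 genes tested. The change of Herpud1 with passage was higher in KO than in WT by 0.44 ± 0.15 (SE, 95% interval 0.10 to 0.79, unadjusted p = 0.0158, adjusted p = 0.269). That of Sdf2l1 was lower in KO by 0.32 on the log2 scale (-0.32 ± 0.17, adjusted p = 0.415), and that of Canx differed by -0.16 ± 0.11 (adjusted p = 0.534). The calls at late passage were thus not shown to differ from early passage. The comparisons of this section share their arrays, since KO late enters both the genotype and the passage comparison.

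Across the 12 arrays the 10 genes did not move as a block. Hspa5 and Hsp90b1 ran together (Pearson r = 0.90), Hspa5 and Pdia6 also (0.76), and Sdf2l1 ran with Calr (0.82) and Canx (0.80). Herpud1 ran against Sdf2l1 (-0.66) and Canx (-0.51), and Dnajb9 ran against Canx (-0.64) and Pdia6 (-0.61). These are descriptions over 12 arrays that share 4 groups, 3 slides and 1 scale per array, so they include the group differences given above. The standard deviation of a gene over the 12 arrays ranged from 0.11 for Xbp1 to 0.29 for Sdf2l1, where the median of all genes was 0.24. Averaged over the 10 genes, each centred on its own mean, the lowest arrays were KO late replicate 2 (-0.15) and WT late replicate 3 (-0.13), and the highest were WT early replicates 3 and 1 (0.13 each).

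**Figure D4:**
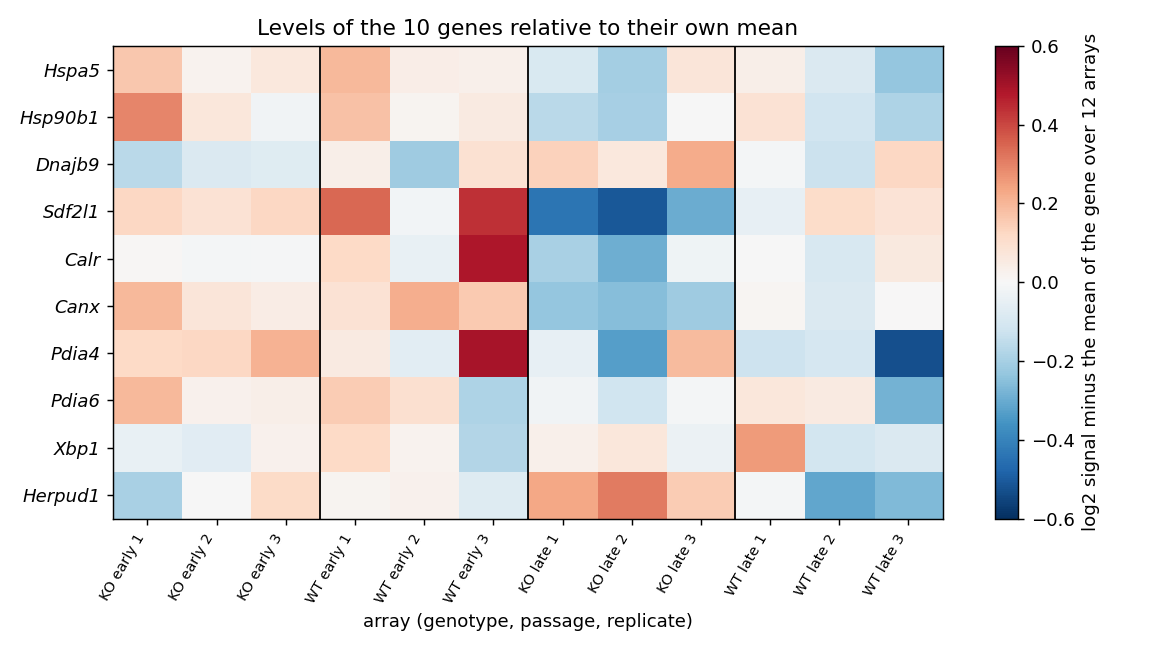
Level of each of the 10 genes on each array minus the mean of that gene over the 12 arrays (log2 units, red above and blue below the mean). Sdf2l1 and Canx are blue in all 3 KO late arrays where Herpud1 is red, and WT early replicate 3 is red for Sdf2l1, Calr and Pdia4.

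The genes whose pattern over the 12 arrays was most like that of Hspa5 were Mfap5 (r = 0.93), Pcbd1 (0.92), Tnmd (0.89), Clasp1 (0.89) and Spc25 (0.88). Those most like the mean of the 10 genes were Fah (0.94), Tnmd (0.92), Zc3h10 (0.92), Ppp1r14a (0.91) and a probe with no symbol (0.90). They are the highest of the correlations with all other genes tested over 12 arrays, and are given as a ranking only.

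Other genes of the same compartment and of its stress response were read from 9 lists with 100 genes, of which 97 were tested. In KO late against WT late 7 of the 97 (7.22%) were higher and 3 (3.09%) were lower, where 3.46% of all genes were higher and 4.37% lower. Each list holds too few genes for its own count to be set against these shares. The list named PERK branch here holds genes of the Atf4 and Ddit3 branch, and whether Eif2ak3 acted on them was not tested. Its median lay farthest from 0 of the 9 lists, at 0.50 over 6 genes. The medians of the other 8 lists lay between -0.14 and 0.20. Of the 6 PERK branch genes, Trib3, Chac1 and Atf4 were higher and 0 were lower. Trib3, a pseudokinase gene induced by Atf4 and Ddit3, averaged 4.27 in KO late against 2.64 in WT late (difference 1.63 ± 0.14, adjusted p = 0.000806). Chac1, which encodes a glutathione-degrading enzyme, differed by 0.73 ± 0.19 (adjusted p = 0.0441), and Atf4, the transcription factor of the branch, by 0.40 ± 0.09 (adjusted p = 0.0243). Ddit3 (CHOP) averaged 1.43 in KO late and 0.84 in WT late without passing the test (adjusted p = 0.0716), Ppp1r15a differed by 0.34 (adjusted p = 0.244), and Atf3 lay the other way at -0.97 ± 0.28 (adjusted p = 0.0641).

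Among the 6 stress sensors and their processing proteases, Atf6 was lower in KO late (-0.45 ± 0.11, adjusted p = 0.0394). Ern1, which splices Xbp1, differed by 0.01 and Eif2ak3 by 0.12, and neither passed the test. Of 12 other folding factors 2 were higher in KO late, the collagen chaperone Serpinh1 (0.39 ± 0.08, adjusted p = 0.0223) and Cnpy2 (0.35 ± 0.07, adjusted p = 0.0212), and 0 were lower. Of 10 other disulfide isomerases and oxidases 0 were higher and 1 was lower, the oxidase Ero1b (-0.71 ± 0.14, adjusted p = 0.0162). Of 19 genes of glycan control and degradation, the partners of Calr, Canx and Herpud1, 1 was higher, the glucosidase gene Mogs (0.52 ± 0.14, adjusted p = 0.0491).

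Of 14 translocon genes, 1 was higher in KO late, Ssr2 (0.42 ± 0.09, adjusted p = 0.0196). Of 13 genes of ER to Golgi transport and of 5 ER calcium-binding proteins 0 passed the test. Nearest to it in the transport list was Lman1, a cargo lectin, at 0.35 ± 0.10 (adjusted p = 0.0540). The nearest calcium-binding gene was Rcn3, a reticulocalbin of the lumen, at 0.28 ± 0.08 (adjusted p = 0.0516). Of 12 heat shock genes outside the ER, 1 was lower in KO late, Hspa1a (-0.65 ± 0.16, adjusted p = 0.0416). Of the 10 calls in these lists at late passage, that of Trib3 alone was kept with each single array left out. Without both KO late arrays that carried Xist all 10 calls were lost, with no change of direction and adjusted p-values from 0.0742 to 0.598. The lowest of these was that of Trib3, whose difference was 1.41, in a range of adjusted p from 0.000228 to 0.0742 over all alternatives. Quantile normalization ended the calls of Atf4 (adjusted p = 0.0628) and Atf6 (0.0590). At early passage 0 of the 97 genes passed the test between KO and WT.

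**Figure D5:**
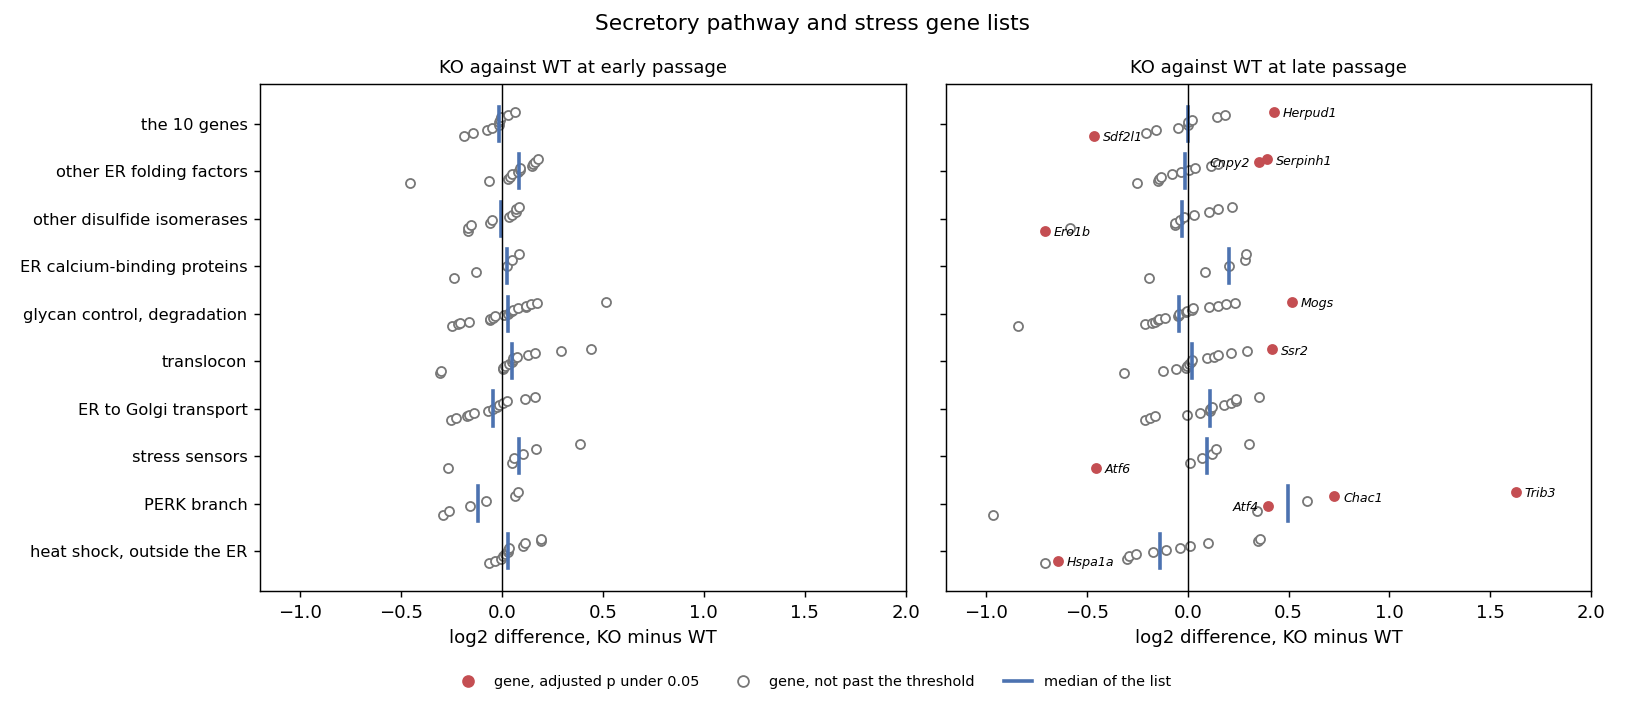
Log2 difference of KO minus WT at early and late passage for the 10 genes and for 9 lists of secretory pathway and stress genes. Points are genes, filled where the adjusted p is under 0.05 and then named, and blue bars are list medians. No point is filled at early passage, and at late passage Trib3 lies farthest to the right.

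Between passages 4 of the 97 genes (4.12%) were higher and 3 (3.09%) were lower in KO late than in KO early, where 9.95% of all genes were higher and 9% lower. In WT 3 (3.09%) were higher and 7 (7.22%) were lower in WT late than in WT early, where 6.22% of all genes were higher and 4.37% lower. In KO, the PERK branch had 2 genes higher and 0 lower in KO late, Ppp1r15a (1.05 ± 0.17, adjusted p = 0.00339) and Chac1 (0.70 ± 0.19, adjusted p = 0.0273). In WT it had 1 gene lower in WT late, Trib3 (-1.196 ± 0.14, adjusted p = 0.00192), and 0 higher. In the comparison of KO in which Sdf2l1 and Canx were lower, the translocon genes Sec61b (-0.41) and Sec61g (-0.30) and the lumenal Erp29 (-0.28) were also lower in KO late. Under quantile normalization these 3 calls were lost, at -0.20 for Sec61b, -0.11 for Sec61g and -0.08 for Erp29 (adjusted p = 0.0975, 0.350 and 0.570). Erlec1 (0.78) and Hsph1 (0.42) were higher. Without both KO late arrays that carried Xist all 7 calls of the lists in KO were lost, with no change of direction and adjusted p-values from 0.120 for Ppp1r15a to 0.475 for Hsph1. In WT, the KDEL receptors Kdelr1 (-0.39) and Kdelr2 (-0.37), which return chaperones such as Hspa5 to the ER, and Lman1 (-0.37) were lower in WT late. Serpinh1 (-0.32), Atf6b (-0.47) and Sec61g (-0.25) were also lower in WT late, while Spcs3 (1.20), Hspa1a (0.69) and Ero1b (0.50) were higher. With the replicate block (slide) over all groups the calls of Ero1b (adjusted p = 0.0629), Sec61g (0.0643) and Kdelr2 (0.0643) were lost. Over all alternatives their adjusted p-values ran from 0.0126 to 0.183, 0.0414 to 0.254 and 0.0367 to 0.206. Quantile normalization ended 4 of the 10 calls in WT, those of Ero1b, Kdelr2, Sec61g and Serpinh1, and a fit of only the 2 WT groups ended all but that of Trib3. With single arrays left out, the calls kept in every case were Trib3 in WT and Ppp1r15a in KO, the second of which was lost without both KO late arrays that carried Xist. Markers moved between the WT passages too, with Des (-1.91), Comp (-2.17), Col9a1 (-2.86) and Col1a2 (-0.45) lower and Lyz2 (1.33) higher in WT late. Of the cartilage list, Cnmd (1.95) and Acan (0.87) had higher means in WT late without passing the test. Actc1 and Epyc were not well above background on any WT late array, at least 7.35-fold and 2.88-fold lower there. Their part in the list genes was not tested.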

How the data were processed

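The deposited scanner files give the intensity of each spot, already background-subtracted and detrended by Agilent Feature Extraction, with no scaling between arrays, per the file headers. Its version is 11.5.1.1 there and 10.7.3.1 in the submitters' processing notes. The authors also deposited a table of log2 values for 22887 probes, centred on each probe's mean for 95.0% of them and with 3175 missing values, which served as an alternative. Liver samples named in the series design were not analysed here.

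From the processed signal, log2 values minus the log2 of the array's 75th percentile over 43020 non-control spots were computed. Outlier spots were left out and repeated spots averaged, and 24359 probes that at least 1 group had well above background in all of its 3 arrays were kept, each gene being read by its brightest probe. Of 28290 probes with a RefSeq transcript identifier, 27969 matched a symbol. The 19507 genes tested (14577 with a symbol) were fitted with limma 3.58.1 in R 4.3.3, with 4 group means and 5 comparisons, and p-values were adjusted by the Benjamini-Hochberg method over all of them. The fit was tested on simulated data. With 3 against 3 arrays an exact two-sided permutation test cannot go below 0.1, so no gene was tested that way. Differences are in log2 units, and the number of arrays limits their precision.

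The replicate number is also the slide. Same-numbered WT late and WT early arrays deviated together (correlations 0.279, 0.244 and 0.141), so the numbers may pair the WT arrays across passages, which the labels do not state. Other pairs of groups did not reach this in all 3 numbers. Single numbers of other groups did pass the lowest of these values, up to 0.156 for replicate 3 of KO early and WT early, so the pairing of replicate 3 is the least clear. P-values measure the spread between the deposited replicates. The 10 genes and all lists were chosen with earlier results of these data known. Named beside the 10 genes were up to 4 called genes per list and comparison, or the nearest gene of a list with no call, and the 5 most similar patterns. Ddit3, Ppp1r15a and Atf3 at late passage, Ern1 and Eif2ak3, and the markers named were added after their values were seen. Promoter sequences are from RefSeq (GRCm38.p6), which may not be the build behind the array design.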

Additional observations from a re-analysis of the deposited data

Results flagged for a closer look

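The change of Trib3 with passage differed between the genotypes in a test of that difference itself. It was higher in KO than in WT by 1.56 ± 0.20 on the log2 scale (SE, adjusted p = 0.0212 in limma's test), with means of 4.27 in KO late, 2.64 in WT late, 3.90 in KO early and 3.83 in WT early. With the replicate block the adjusted p was 0.0786, and over all alternatives it ran from 0.0129 to 0.384.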

How the results depend on the processing

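The number of the 10 genes called in KO against WT at late passage was 2. It was 1 with the median of kept probes as the scale, with the replicate block (slide), with only the 2 groups in the fit and with the percentile taken over averaged probes, an alternative added after the data were seen. It was 0 with no filter on dim probes and without both KO late arrays that carried Xist, and 0 to 1 with 1 array left out. Canx, not called at late passage in the main fit, passed the threshold there under at least 1 alternative (lowest adjusted p = 0.0483 in limma's test). Between passages in KO the number was 2. It was 1 under quantile normalization, 4 (2 higher and 2 lower) with 1 weight for each group, an alternative added after the data were seen, 0 without both KO late arrays that carried Xist, and 0 to 2 with 1 array left out. The other 3 comparisons had 0 calls among the 10 genes under every alternative run. The replicate block ended the calls of Herpud1, Atf6, Mogs and Hspa1a between genotypes at late passage, those of Ero1b, Sec61g and Kdelr2 between passages in WT, and that of Trib3 in the difference of passage changes, and changed no other call of the 10 genes and the 9 pathway lists. The cause of these changes was not tested, beyond the fewer arrays or the larger number of genes that some of these alternatives hold.

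The median of the 10 genes was -0.0721 in WT and -0.00477 in KO between passages under quantile normalization. Without both KO late arrays that carried Xist it was -0.0159 in KO between passages and 0.107 for the difference of passage changes. With 1 array left out it ran from -0.0777 to 0.0752 in KO against WT at late passage, -0.0474 to -0.0138 at early passage, -0.203 to -0.132 in WT and -0.234 to -0.0955 in KO between passages, and -0.0412 to 0.0672 for the difference of passage changes.

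Of 930 values of the 10 genes under the alternatives, 843 kept their direction and side of the threshold, 26 lost a call, 4 gained one and 57 changed sign, all of the last uncalled. In KO against WT at late passage, Pdia6 was -0.0180 with quantile normalization, -0.00483 with normexp and -0.0918 with the mean of its probes, and without both KO late arrays that carried Xist Hsp90b1 was 0.0688 and Xbp1 -0.0553. At early passage, Hsp90b1 was -0.0216 with quantile normalization, Herpud1 0.0292 with normexp and Dnajb9 0.0476 with the mean of its probes. Between passages, quantile normalization gave Pdia6 0.0679 in WT, and Hspa5 0.0196 and Pdia6 0.0332 in KO, and without both KO late arrays that carried Xist Pdia4 was 0.0364 and Xbp1 -0.00672 in KO. For the difference of passage changes, Calr was -0.000522 with normexp, and without both KO late arrays Hsp90b1 was 0.0380 and Xbp1 -0.0374. With 1 array left out, 41 values of 18 results changed sign. In KO against WT at late passage, Hsp90b1 ranged from -0.107 to 0.0300, Xbp1 -0.0633 to 0.120, Hspa5 -0.0510 to 0.0874 and Pdia6 -0.111 to 0.0630. At early passage, Hspa5 ranged from -0.0465 to 0.0460, Xbp1 -0.100 to 0.0480, Hsp90b1 -0.0595 to 0.0980, Herpud1 -0.0878 to 0.0687, Pdia4 -0.121 to 0.157 and Pdia6 -0.0395 to 0.130. Between passages in WT, Dnajb9 ranged from -0.0657 to 0.0868, Xbp1 -0.0872 to 0.0965 and Pdia6 -0.178 to 0.0396. For the difference of passage changes, Hspa5 ranged from -0.0438 to 0.0946, Xbp1 -0.0455 to 0.138, Calr -0.116 to 0.149, Pdia6 -0.175 to 0.0424 and Hsp90b1 -0.147 to 0.0108.

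Over all genes, the number called in KO against WT at late passage was 1528, and it was 615 with no filter, 3097 with 1 weight for each group, 255 to 1153 with 1 array left out and 1 without both KO late arrays that carried Xist. Quantile normalization called 1003 higher and 787 lower there. At early passage it was 7, and 1 to 5 under the alternatives other than the median scale, the mean of probes and the percentile over averaged probes. In WT between passages it was 2065, with 1003 for no filter, 560 for only the 2 groups, 554 for 1 weight for each group and 1166 to 2459 with 1 array left out. In KO it was 3696, with 2320 for no filter, 6581 for 1 weight for each group, 1780 to 3884 with 1 array left out and 165 without both KO late arrays that carried Xist. For the difference of passage changes it was 17, with 38 for normexp, 3 for no filter, 8 for probes above background on all arrays, 9 for the deposited table, 4 with the replicate block, 1 to 230 with 1 array left out and 0 without both KO late arrays. Quantile normalization called 8 higher and 5 lower there.

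Weights for single arrays did not converge and were not run, and 1 weight for each group replaced them. The planned normexp on all spots was set by a few spots the scanner software had marked as outliers (fitted background down to -1235.62), and the column of mean signals it called for was not used here, so normexp was run on the median signal without those spots.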
